A study of Mus musculus with 4 samples.

Results

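Heat shock proteins and cytosolic chaperones are described here in the corpus, the acid-secreting body of the mouse stomach, 48 hr after an injury. The 44 genes were taken from the deposited table by symbol, out of 52125 rows, and all 44 were found and passed the filter on low counts that left 18285 genes. They were divided by role into 2 heat shock transcription factors, 11 stress-inducible chaperones, 11 constitutive chaperones, 8 subunits of the CCT chaperonin, 5 mitochondrial chaperones and 7 co-chaperones. The study sequenced total RNA from the corpus of 4 wild-type C57BL/6 mice aged 6 to 8 weeks, with 1 mouse per library. The vehicle group held 2 mice and the HDT group 2 mice that received 1 intraperitoneal injection of HDT at 5 mg per 20 g of body weight. HDT commonly stands for high-dose tamoxifen in studies of gastric injury, but the labels give only the abbreviation. The titles say vehicle where the protocol says untreated, so it is not known whether the control mice were injected.

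Chaperones bind unfolded protein chains and help them fold, assemble or be degraded. HSP70 proteins work through cycles of ATP hydrolysis that HSP40 proteins start and nucleotide exchange factors end, and HSP90 takes over partly folded clients such as kinases and steroid receptors. CCT, also called TRiC, is a ring of different subunits that encloses newly made actin, tubulin and other proteins. Under proteotoxic stress, HSF1 binds heat shock elements, inverted repeats of the letters GAA, and raises the transcription of the inducible chaperones.

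Sequences before the start of a few members are shown because they carry the element through which the family is known to be induced. RefSeq promoters on GRCm38.p6 were at hand for 35 of the 44 genes, in 46 entries. Capitals mark each match to GAANNTTC or TTCNNGAA, an inverted repeat in either orientation, within the 250 bases before the listed start. Each form reads alike on both strands, and neighbouring matches can overlap.
Hspe1, chr1:55088053-55088082, plus strand: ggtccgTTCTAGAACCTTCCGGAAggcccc
Hspa1a, chr17:34972206-34972286, minus strand: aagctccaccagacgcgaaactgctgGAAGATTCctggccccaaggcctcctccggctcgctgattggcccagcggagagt
Hspa1b, chr17:34959288-34959368, minus strand: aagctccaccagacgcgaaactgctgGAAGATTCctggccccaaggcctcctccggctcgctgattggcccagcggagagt
Hspb1, chr5:135887789-135887849, plus strand: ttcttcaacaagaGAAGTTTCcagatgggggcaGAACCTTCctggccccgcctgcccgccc
Dnajb6, chr5:29735844-29735873, plus strand: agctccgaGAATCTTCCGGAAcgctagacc
Hsph1, chr5:149636351-149636380, minus strand: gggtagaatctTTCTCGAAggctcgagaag

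The first of these lies before the start of Hspe1, inside an annotated exon of the oppositely directed gene Hspd1, and is also before a RefSeq start of Hspd1. It holds overlapping matches in a row. The stretches of Hspa1a and Hspa1b were identical in 81 of 81 bases, and their whole upstream windows in 247 of 250. The repeat pair occurred in 13 of the 35 members with a promoter entry, where a gene counted if any of its entries matched. It occurred in 12.8% of all 32851 promoter entries, counted entry by entry, so these shares are in unlike units. The 13 include Hspd1 and Hspe1, which share 1 stretch, and both Hspa1a and Hspa1b. A longer form, in which 1 more repeat unit follows at the same spacing, contains the shorter one. This form occurred in the genes Dnajb6, Hspd1 and Hspe1, and in 0.466% of all entries, again in unlike units. The stretches of Hspa1a, Hspa1b and Hspb1 lie outside annotated exons. Those of Dnajb6 and Hsph1 lie before a RefSeq start but overlap annotated exons of the same genes. The Dnajb6 stretch also overlaps an exon of Gm5129, a gene on the opposite strand. A match is a description of letters and not of binding.

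Values are CPM, read counts brought to a common library total after TMM scaling, which sets the bulk of genes equal between libraries. Depth ranged from 41536686 to 42674985 reads recovered from the deposited values. TMM factors were 0.848 and 0.818 in the vehicle libraries and 1.219 and 1.183 in the HDT libraries, and the 20 most abundant genes took 40.7% and 42.8% of reads in vehicle and 22.3% and 22% in HDT. At the scaling the authors deposited, the median log2 fold change of all genes was 0.53 rather than 0, so that a gene near 0 with TMM appeared higher. Changes are given relative to the TMM median. Where 1 mouse is left out below, the lone mouse of a group is assumed to vary like the other group. Of all genes tested, limma called 18.4% higher and 19.3% lower in HDT, 37.7% together. Corpus markers were present in vehicle, with 8 parietal cell genes summing to 12380 and 13540 CPM and 5 chief cell genes to 141900 and 174300 CPM. In HDT these sums were 2077 and 1677 CPM, and 40280 and 29600 CPM. In bulk RNA, fewer cells of a type and less RNA per cell cannot be told apart.

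The chaperone family did not move as one. Among the 44 members, limma called 11 higher and 7 lower and left 26 uncalled, so that 25% were higher and 15.9% lower, beside the 18.4% and 19.3% of all genes. The median log2 fold change was 0.01 for the members and −0.001 for all genes tested. HDT mice lay above both vehicle mice for 17 members and below both for 19, where 35.3% and 35.5% of all genes did so. Hspa1b, Hspd1 and the chaperonin subunits made up 8 of the 11 higher members, while the small heat shock proteins Hspb1 and Cryab, Hsph1 and Bag1 were the farthest on the lower side. The summed level of all 44 genes was 6360 and 6388 CPM in vehicle and 6477 and 6640 CPM in HDT. edgeR on the recovered reads also called 11 members higher and 7 lower.

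**Figure D1:**
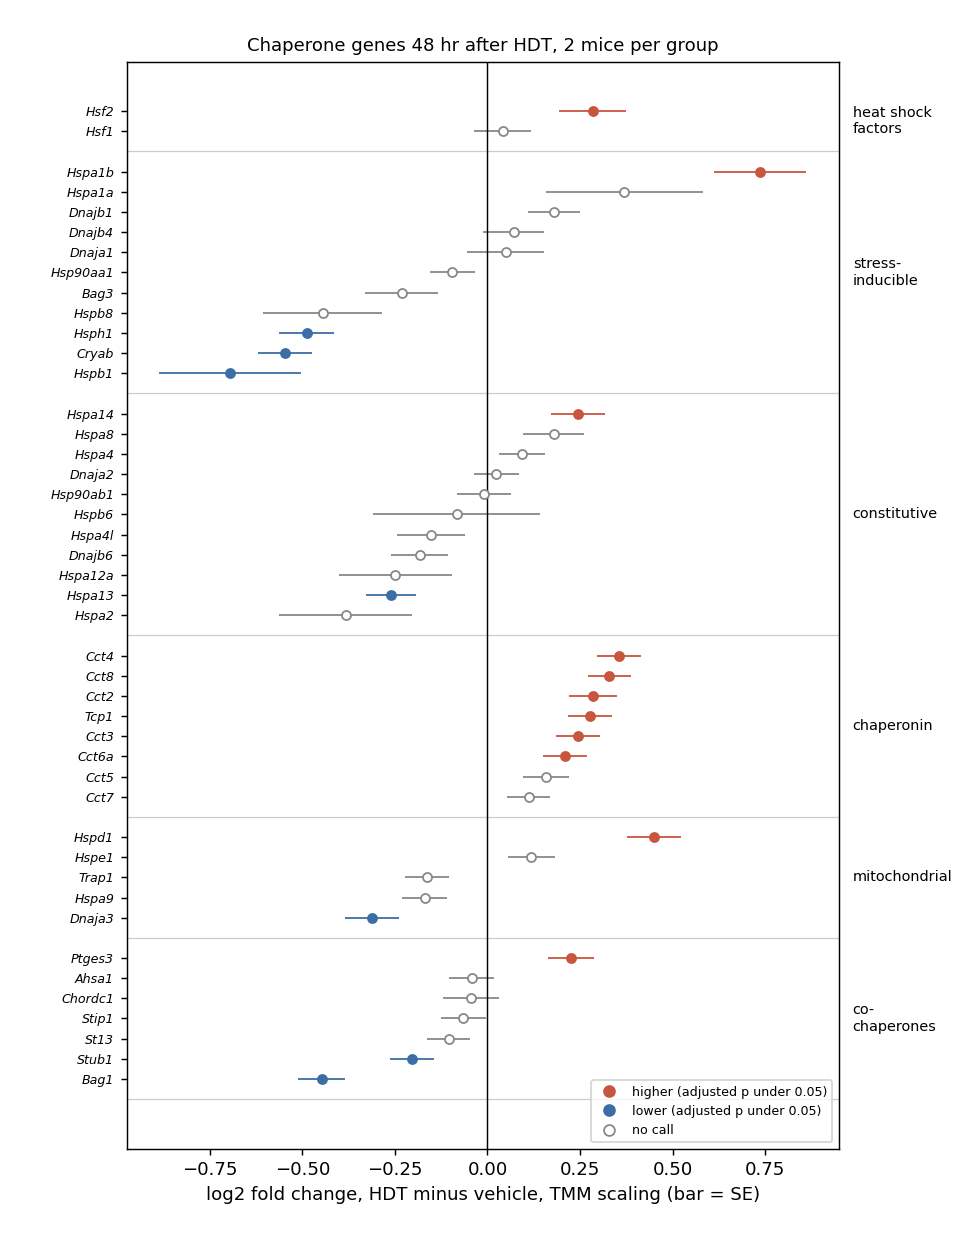
Log2 fold change of each of the 44 genes, HDT minus vehicle at TMM scaling, with bars of 1 SE, ordered within role groups; filled points passed the limma test at an adjusted p of 0.05. All 8 chaperonin genes lie above 0, while the stress-inducible group spans −0.70 to 0.74.

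Levels were spread over a wide range, compared here as CPM per kb of the principal transcript. Cct6a has no transcript tagged as principal, and 1 was chosen for it by length. The constitutive cytosolic HSP90, Hsp90ab1, was the most abundant at 591 and 610 in vehicle and 600 and 593 in HDT. Next came Hspa8, the constitutive cytosolic HSP70, at 439 and 443 in vehicle and 467 and 534 in HDT. Bag1, a nucleotide exchange factor for HSP70, had 248 and 236 in vehicle and 174 and 181 in HDT. Hsp90aa1, the inducible HSP90, followed at 119 and 121 in vehicle and 111 and 114 in HDT. The mitochondrial HSP70 gene Hspa9 had 106 and 108 in vehicle and 96.3 and 93.5 in HDT. In vehicle these 5 genes did not overlap in level, while in HDT Hspd1, at 121 and 107, lay above Hspa9 and overlapped Hsp90aa1. The inducible HSP70 genes Hspa1a and Hspa1b were near the bottom in vehicle, at 1.36 and 0.90 for Hspa1a and at 1.94 and 1.72 for Hspa1b, and only Hspa12a was lower in every mouse, at 0.68 and 0.79 in vehicle.

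Of the heat shock factors, Hsf2 rose and Hsf1 did not pass the test. Hsf1, the main activator of the heat shock response, was at 21.4 and 20.0 CPM in vehicle and 21.4 and 21.1 CPM in HDT, and the groups overlapped. Its log2 fold change was 0.04 (SE 0.08, limma adjusted p = 0.708). Hsf2, a related factor studied mainly in development, was at 10.8 and 11.4 CPM in vehicle and at 13.1 and 13.9 CPM in HDT, with no overlap. The log2 fold change of Hsf2 was 0.28 (SE 0.09, limma adjusted p = 0.0415). This call was lost when any 1 mouse was left out, at limma adjusted p values of 0.18 and 0.0799 without vehicle replicates 1 and 2 and 0.0648 and 0.125 without HDT replicates 1 and 2, and with DESeq2 (adjusted p = 0.131).

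Among 11 stress-inducible chaperones, 1 was higher, 3 lower and 7 without a call, with a median log2 fold change of −0.10. These 4 calls among 11 genes are a share near the 37.7% called over all genes. Hspa1b rose from 5.43 and 4.82 CPM in vehicle to 8.088 and 8.995 CPM in HDT. The groups stood apart, and the log2 fold change was 0.74 (SE 0.13, limma adjusted p = 0.00261), the largest among the 44 genes. Its neighbour Hspa1a was at 4.03 and 2.67 CPM in vehicle and 3.93 and 4.60 CPM in HDT. These groups overlapped through vehicle replicate 1 (log2 fold change 0.37, SE 0.21, limma adjusted p = 0.211). Without vehicle replicates 1 and 2 in turn the log2 fold change of Hspa1a was 0.67 and 0.075.

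The 2 HSP70 genes are nearly alike in sequence, so their values are uncertain one by one. Of the 100-base windows of the Hspa1a transcript, 47.1% occurred exactly in Hspa1b, and 49.9% the other way, while none was shared with Hspa8. The sources used here do not give how the authors counted reads with several possible positions. If such reads were left out, the levels of both genes and of their sum would be too low. The sum of both genes was 9.46 and 7.49 CPM in vehicle and 12.02 and 13.59 CPM in HDT, without overlap. Hspa1a also shares 19% of its exon bases with Gm20481, annotated on the opposite strand. Both genes lie on chromosome 17, Hspa1a at 34969190 to 34972156 and Hspa1b at 34956436 to 34959238, and each is a single exon.

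Other genes of the inducible class were near or below their vehicle level. Hsph1, an HSP110 protein that exchanges nucleotide on HSP70, fell from 63.0 and 58.0 CPM to 41.3 and 45.0 CPM, with no overlap. The log2 fold change of Hsph1 was −0.49 (SE 0.07, limma adjusted p = 0.00146). The HSP40 gene Dnajb1, which starts the HSP70 cycle, was at 34.8 and 37.9 CPM in vehicle and at 40.8 and 41.5 CPM in HDT. Both HDT mice were above both vehicle mice by a small margin (log2 fold change 0.18, limma adjusted p = 0.0764), and with upper-quartile scaling it was called higher (limma adjusted p = 0.0356). Hsp90aa1 was at 391 and 398 CPM in vehicle and at 363 and 375 CPM in HDT (log2 fold change −0.10, limma adjusted p = 0.262). Bag3, which links HSP70 to selective autophagy, had 80.1 and 78.6 CPM in vehicle and 60.8 and 75.0 CPM in HDT. Its HDT mice differed from each other more than the vehicle mice did (log2 fold change −0.23, limma adjusted p = 0.104), and without HDT replicate 2 it was called lower at −0.36 (limma adjusted p = 0.00496). The remaining HSP40 genes, Dnaja1 and Dnajb4, overlapped between groups, with log2 fold changes of 0.05 and 0.07.

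The small heat shock proteins, which hold unfolded proteins without using ATP, had log2 fold changes below 0 with TMM, although Hspb8 and Hspb6 turned to 0.09 and 0.45 at the deposited scaling and Hspb6 also turned when 1 mouse was left out. Cryab, or alpha-B-crystallin, fell from 34.8 and 32.0 CPM to 22.7 and 23.0 CPM, with the groups well apart. This was a log2 fold change of −0.55 (SE 0.07, limma adjusted p = 0.000805). Hspb1, also known as HSP25 in mice, went from 29.5 and 22.4 CPM to 13.7 and 18.3 CPM. These groups did not overlap, but mice of 1 group differed widely (log2 fold change −0.70, SE 0.19, limma adjusted p = 0.0399). The call of Hspb1 was lost without vehicle replicate 1 (limma adjusted p = 0.0944), without HDT replicate 1 (0.139), with no filter on low counts (0.0762) and under upper-quartile scaling (0.0548). Hspb8, the partner of Bag3, was at 20.7 and 16.3 CPM in vehicle and 11.9 and 15.3 CPM in HDT. Its log2 fold change was −0.45 (limma adjusted p = 0.0718), and it was called lower with DESeq2 (adjusted p = 0.0372). Without vehicle replicates 1 and 2 in turn the log2 fold change was −0.27 and −0.62. Without HDT replicates 1 and 2 it was −0.26 and −0.61. Hspb6, a small heat shock protein of muscle placed here with the constitutive genes, was at 28.5 and 18.4 CPM in vehicle and 20.9 and 22.5 CPM in HDT, with overlap. Its log2 fold change of −0.08 turned to 0.23 without vehicle replicate 1, and was −0.40 without vehicle replicate 2.

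Smooth muscle, which is part of the stomach wall, also expresses small heat shock proteins. The 10 smooth muscle markers summed to 3471 and 2474 CPM in vehicle and to 2100 and 3045 CPM in HDT, led by Acta2 and Myh11. limma called none of the 10 in either direction, beside 37.7% of all genes. At an unadjusted p under 0.05, 1 was lower, and edgeR called none. Within each group, the mouse with more marker RNA also had more Hspb1, Hspb8, Hspb6 and Cryab, though Cryab by a small margin in HDT. The marker sums overlapped between groups, with HDT replicate 2 between both vehicle mice and HDT replicate 1 below them. Hspb6 also overlapped between groups, while Hspb1, Cryab and Hspb8 did not. The part of smooth muscle RNA in the small heat shock protein values was not tested. Cryab shares 17% of its exon bases with Hspb2, on the opposite strand, which was at 1.33 to 2.27 CPM. Immediate-early genes respond to handling as well as to injury. Of 8, 1 was higher and 4 were lower, beside 18.4% and 19.3% of all genes. Their sums were 371 and 324 CPM in vehicle and 301 and 297 CPM in HDT. The part of immediate-early genes in the values of the inducible chaperones was not tested either.

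**Figure D2:**
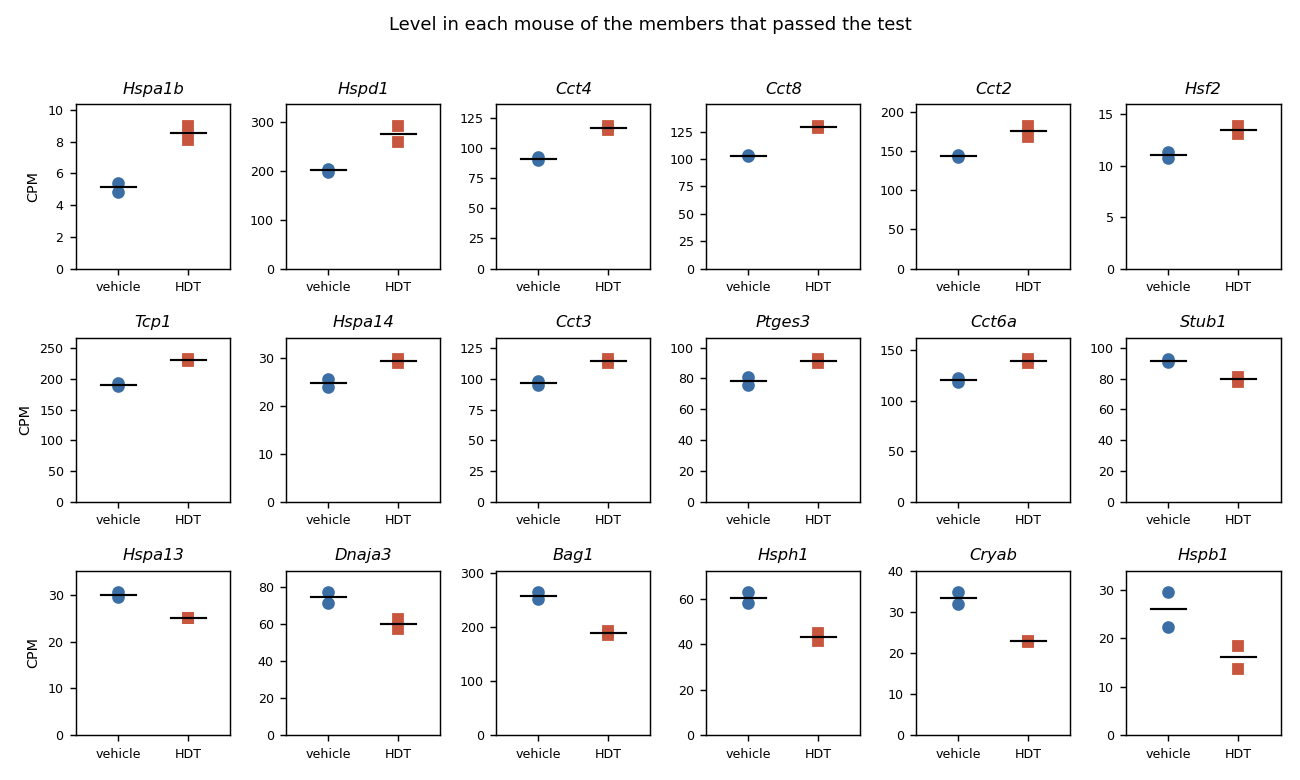
CPM in each mouse, on axes that start at 0, for the 18 members that passed the limma test, ordered from the largest rise to the largest fall; circles are vehicle mice, squares HDT mice and lines group means. No panel shows overlap, and Hspb1 has the widest spread relative to its level, at 13.7 to 18.3 CPM in HDT.

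Among 11 constitutive chaperones, 1 was higher, 1 lower and 9 without a call, beside 37.7% called over all genes, and the median log2 fold change was −0.08. Hspa8, which folds new chains and uncoats clathrin vesicles, was at 1052 and 1061 CPM in vehicle and at 1119 and 1278 CPM in HDT. HDT replicate 2 stood above the other mice (log2 fold change 0.18, SE 0.08, limma adjusted p = 0.129). Without HDT replicates 1 and 2 in turn the log2 fold change was 0.28 and 0.10. Hsp90ab1 was at 1489 and 1537 CPM in vehicle and 1512 and 1495 CPM in HDT, with complete overlap (log2 fold change −0.01, SE 0.07, limma adjusted p = 0.939). Its sign turned, to 0.03, under upper-quartile scaling and, to 0.004, when genes with low counts were kept.

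Hspa14, an HSP70-like protein of the ribosome-associated complex, rose from 25.5 and 24.0 CPM to 29.8 and 28.9 CPM. The log2 fold change was 0.25 (SE 0.07, limma adjusted p = 0.0293). The call was lost without vehicle replicate 1 (0.0522), vehicle replicate 2 (0.164) or HDT replicate 1 (0.0962), and with DESeq2 (adjusted p = 0.0903). In GENCODE M21 the gene shares 7.9% of its exon bases with Gm45902 on the same strand. Hspa13, an HSP70-like protein of the microsomal fraction, fell from 30.7 and 29.6 CPM to 25.1 and 25.1 CPM (log2 fold change −0.26, SE 0.07, limma adjusted p = 0.0184). Its call was lost without any 1 of the mice, at limma adjusted p values of 0.112, 0.051, 0.0584 and 0.062 without vehicle replicates 1 and 2 and HDT replicates 1 and 2, and with DESeq2 (adjusted p = 0.0563).

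The HSP110 gene Hspa4 was at 176 and 187 CPM in vehicle and 192 and 195 CPM in HDT (log2 fold change 0.09). Its relative Hspa4l was at 21.0 and 21.1 CPM in vehicle and 20.4 and 17.5 CPM in HDT (log2 fold change −0.15). The HSP40 genes Dnaja2 and Dnajb6 had log2 fold changes of 0.02 and −0.18. None of these 4 genes was called at TMM scaling. Hspa2, known for its part in sperm formation, was at 11.5 and 9.55 CPM in vehicle and 6.79 and 9.53 CPM in HDT. Its log2 fold change was −0.38 (limma adjusted p = 0.14). Without HDT replicates 1 and 2 in turn it was −0.13 and −0.61. Hspa12a, a distant HSP70 relative, was at 3.89 and 4.56 CPM in vehicle and 3.38 and 3.71 CPM in HDT.

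The chaperonin subunits shared 1 direction with TMM. At the deposited scaling, which leaves the common shift of 0.53 in every gene, 8 of 8 were called higher, beside 62.8% of all genes. With TMM, 6 of 8 genes were higher and 2 without a call, beside 18.4% higher over all genes. The median log2 fold change was 0.26, in a range of 0.11 to 0.36. In 8 of 8 genes both HDT mice were above both vehicle mice, beside 35.3% of all genes. Cct4 rose from 89.7 and 92.9 CPM to 118 and 115 CPM (log2 fold change 0.36, SE 0.06, limma adjusted p = 0.00243). Cct8 rose from 102 and 103 CPM to 128 and 130 CPM (log2 fold change 0.33, SE 0.06, limma adjusted p = 0.00307). For both genes the mice of a group agreed to within a few CPM.

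Cct2 went from 142 and 145 CPM to 182 and 168 CPM, by 0.28 on the log2 scale (limma adjusted p = 0.0104). Tcp1, which encodes the alpha subunit, went from 189 and 193 CPM to 233 and 230 CPM, by 0.28 (limma adjusted p = 0.00743). Cct3 went from 95.4 and 98.4 CPM to 116 and 113 CPM, by 0.24 (limma adjusted p = 0.0138). These 3 genes, as well as Cct6a, stood well apart between groups. Cct6a went from 123 and 119 CPM to 138 and 142 CPM, by 0.21 (limma adjusted p = 0.025). Cct5, at 120 and 118 CPM in vehicle and 136 and 128 CPM in HDT, had a log2 fold change of 0.16 (limma adjusted p = 0.0808). Upper-quartile scaling gave a call (limma adjusted p = 0.0417). Without HDT replicates 1 and 2 in turn the log2 fold change of Cct5 was 0.12 and 0.22. Cct7 was at 114 and 111 CPM in vehicle and at 121 and 122 CPM in HDT, with a log2 fold change of 0.11 (limma adjusted p = 0.174).

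With 1 vehicle mouse left out, 2 of the 8 subunits were called, Cct4 and Cct8. Without vehicle replicates 1 and 2 in turn, the limma adjusted p was 0.0942 and 0.0646 for Tcp1, 0.084 and 0.0575 for Cct2, 0.124 and 0.0679 for Cct3 and 0.115 and 0.196 for Cct6a, at log2 fold changes of 0.19 to 0.30. Fewer genes were also called higher over all genes when either vehicle mouse was left out. Cct6a shares 12.5% of its exon bases with Psph, and Tcp1 shares 11.4% with Acat3, each on the opposite strand. No source used here gives the strand setting of the counting. Mitosis markers were also higher in HDT. The 10 genes summed to 168 and 188 CPM in vehicle and 700 and 588 CPM in HDT. All 10 were called higher, beside 18.4% of all genes, and their part in the chaperonin values was not tested.

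The balance among subunits was compared inside each mouse. The log2 level of each subunit relative to the mean of all 8 changed by −0.14 for Cct7 and by 0.11 for Cct4, the extremes, and this measure does not depend on how libraries are scaled. For Tcp1, Cct4, Cct5, Cct7 and Cct8 the groups did not overlap, while for Cct2, Cct3 and Cct6a they did. The Cct2 difference, 0.039, turned to −0.005 without HDT replicate 1, and the Cct3 difference, −0.002, turned to 0.016 without vehicle replicate 2 and to 0.004 without HDT replicate 2. The Cct6a difference went from −0.036 to −0.004 without HDT replicate 1, to −0.010 without vehicle replicate 1, and to −0.062 and −0.068 without vehicle replicate 2 and HDT replicate 2. With 2 mice per group, an exact permutation test cannot give a two-sided p below 0.333, so these differences are values without a call. Per kb of transcript, Tcp1 and Cct2 were the most abundant subunits in every mouse and Cct4 was the least abundant.

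**Figure D3:**
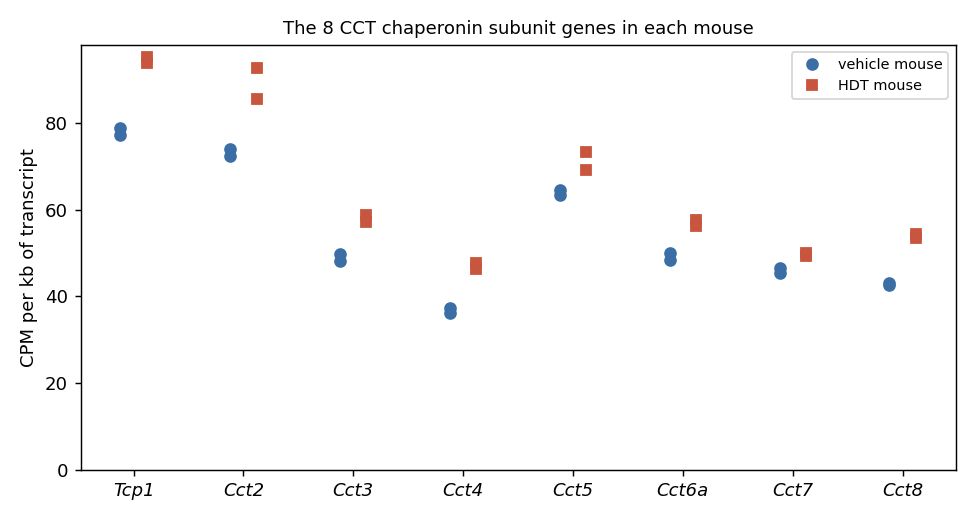
CPM per kb of transcript for the 8 chaperonin subunit genes, with 2 vehicle mice as circles and 2 HDT mice as squares; the axis starts at 0. For each subunit both HDT mice lie above both vehicle mice, and Tcp1 goes from 77.2 and 78.9 to 95.2 and 94.0.

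Mitochondrial chaperones did not share 1 direction with TMM. At the deposited scaling 5 of 5 were called higher, beside 62.8% of all genes. Of 5 genes, 1 was higher, 1 lower and 3 without a call with TMM, beside 18.4% higher and 19.3% lower over all genes. The median log2 fold change was −0.16. Hspd1, the HSP60 of the mitochondrial matrix, rose from 199 and 204 CPM to 293 and 259 CPM. HDT replicate 1 was the highest, both HDT mice were above both vehicle mice, and the log2 fold change was 0.45 (SE 0.07, limma adjusted p = 0.00223). Its partner Hspe1, the HSP10 lid that closes the HSP60 ring, was at 48.2 and 50.2 CPM in vehicle and 52.2 and 54.6 CPM in HDT. That difference was in the same direction and smaller (log2 fold change 0.12, SE 0.06, limma adjusted p = 0.183).

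Hspd1 and Hspe1 lie head to head on chromosome 1, at 55077835 to 55088243 on the minus strand and 55088132 to 55091307 on the plus strand. They share 112 annotated exon bases, 4.2% of those of Hspd1 and 7.6% of those of Hspe1, and the stretch printed above lies outside these shared bases. The processed pseudogene Hspd1-ps3 was at 0.966 and 1.45 CPM in vehicle and 1.61 and 1.65 CPM in HDT, small beside Hspd1. The log2 ratio of Hspd1 to Hspe1 was 2.05 and 2.02 in vehicle and 2.49 and 2.24 in HDT. The ratio was thus higher in both HDT mice, by 0.33 on average, with an exact two-sided permutation p of 0.333, the smallest that 2 mice against 2 can give. Without HDT replicate 1 the difference was 0.21.

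Dnaja3, the mitochondrial HSP40, fell from 71.6 and 77.2 CPM to 62.7 and 57.2 CPM (log2 fold change −0.31, SE 0.07, limma adjusted p = 0.0117), and the call was lost without vehicle replicate 2 (0.0803). Hspa9, the mitochondrial HSP70 that also pulls proteins through the import channel, was at 322 and 329 CPM in vehicle and at 294 and 285 CPM in HDT. The groups stood apart at a small difference (log2 fold change −0.17, SE 0.06, limma adjusted p = 0.0583). It was called with a filter of 1 CPM (limma adjusted p = 0.0487). Without HDT replicates 1 and 2 in turn the log2 fold change was −0.185 and −0.132. Trap1, the mitochondrial HSP90, was at 81.7 and 81.6 CPM in vehicle and 74.4 and 71.5 CPM in HDT (log2 fold change −0.16, limma adjusted p = 0.0641). Parietal cells are rich in mitochondria, and their 8 markers fell to the sums given above, with 6 called lower, beside 19.3% of all genes. Their part in the values of the mitochondrial chaperones was not tested.

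Co-chaperones were mostly on the lower side by small amounts with TMM. At the deposited scaling 6 of 7 were called higher, beside 62.8% of all genes. Of 7 genes, 1 was higher, 2 lower and 4 without a call with TMM, beside 18.4% higher and 19.3% lower over all genes. The median log2 fold change was −0.06. Bag1 fell from 265 and 252 CPM to 186 and 193 CPM, with a wide gap between the groups. Its log2 fold change was −0.45 (SE 0.06, limma adjusted p = 0.000981). Ptges3, the p23 protein that holds HSP90 in its closed state, rose from 80.7 and 75.5 CPM to 90.0 and 92.6 CPM (log2 fold change 0.23, SE 0.06, limma adjusted p = 0.0247). That call was lost without vehicle replicate 1 (0.0559) or vehicle replicate 2 (0.202).

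Stub1, or CHIP, the ubiquitin ligase that marks chaperone clients for the proteasome, fell from 90.7 and 92.7 CPM to 78.0 and 81.3 CPM (log2 fold change −0.20, SE 0.06, limma adjusted p = 0.0306). It was not called without vehicle replicate 1 (0.122), vehicle replicate 2 (0.182) or HDT replicate 1 (0.0868), nor by DESeq2 (adjusted p = 0.0597), nor when low-count genes were kept (0.0542) or upper-quartile scaling was used (0.0519). Of its exon bases 42.3% are shared with Jmjd8 on the opposite strand, so reads of the 2 genes may be mixed. Stip1, which bridges HSP70 and HSP90, was at 130 and 124 CPM in vehicle and 121 and 123 CPM in HDT. Ahsa1, the activator of HSP90 ATPase, had 57.9 and 60.2 CPM in vehicle and 56.9 and 57.8 CPM in HDT. For St13, which holds HSP70 in its ADP-bound state, the levels were 136 and 141 CPM in vehicle and 130 and 128 CPM in HDT. Chordc1, an HSP90-binding protein, overlapped between groups at 38.9 and 38.0 CPM and 35.3 and 39.4 CPM. The log2 fold changes of these 4 genes were −0.07, −0.04, −0.11 and −0.04, none of them called.

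Ratios between related genes compare them inside each mouse and do not depend on the scaling. By the role groups used here, 3 of the following pairs set an inducible against a constitutive gene. The pair of Hspa4l and Hspa4 sets 2 genes of the constitutive group against each other. The log2 ratio of Hsp90aa1 to Hsp90ab1 was −1.93 and −1.95 in vehicle and −2.06 and −1.99 in HDT, a difference of −0.09 that was −0.055 without HDT replicate 1. For the sum of Hspa1a and Hspa1b over Hspa8 it was −6.80 and −7.15 in vehicle and −6.54 and −6.56 in HDT, a difference of 0.42 that was 0.25 without vehicle replicate 2 and 0.60 without vehicle replicate 1. The ratio of Dnajb1 to Dnaja2 was −1.77 and −1.68 in vehicle and −1.55 and −1.59 in HDT, a difference of 0.16. For Hspa4l over Hspa4 the values were −3.07 and −3.15 in vehicle and −3.24 and −3.48 in HDT, a difference of −0.24 that was −0.125 without HDT replicate 2. In each of these 4 pairs the groups did not overlap, and the pairs did not point 1 way. The gene grouped as inducible was relatively higher for HSP70 and HSP40 and relatively lower for HSP90. Each pair has an exact two-sided permutation p of 0.333, the smallest possible here, and of 0.433 after Benjamini-Hochberg adjustment over the 13 ratios computed.

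**Figure D4:**
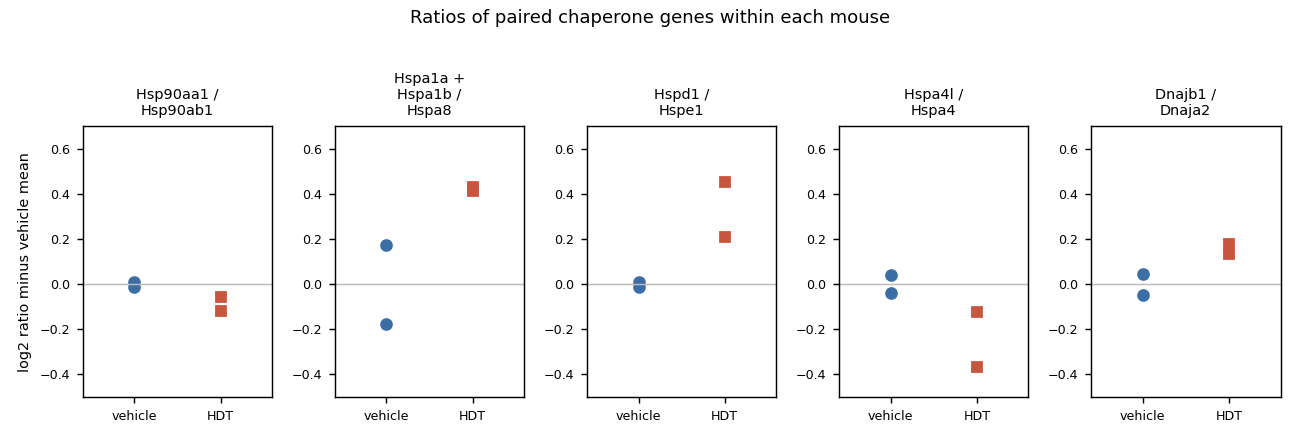
Log2 ratio of 5 gene pairs in each mouse, drawn as the difference from the vehicle mean, with vehicle mice as circles and HDT mice as squares. HDT mice lie above vehicle for the HSP70 pair (difference 0.42), Hspd1 over Hspe1 (0.33) and the HSP40 pair (0.16), and below for the HSP90 pair (−0.09) and Hspa4l over Hspa4 (−0.24).

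Other genes of the chaperone network were taken from 5 lists, with directions given for TMM. Of 18 HSP90 co-chaperones, limma called 4 higher and 7 lower, beside 18.4% higher and 19.3% lower over all genes. Their median log2 fold change was −0.05. Ruvbl1, an ATPase of the R2TP assembly complex, rose from 8.83 and 9.26 CPM to 14.3 and 14.8 CPM (log2 fold change 0.68, limma adjusted p = 0.00081). Its partner Ruvbl2 rose from 20.1 and 21.1 CPM to 32.2 and 30.3 CPM (log2 fold change 0.60, limma adjusted p = 0.000513). Of 18 other HSP40 and HSP70 partners, limma called 3 higher and 5 lower, beside 18.4% and 19.3% of all genes. The median log2 fold change of these partners was −0.13. Dnaja4, a cytosolic HSP40, fell from 17.8 and 20.3 CPM to 9.26 and 8.60 CPM (log2 fold change −1.09, limma adjusted p = 0.000129), and Dnajc9, an HSP40 that handles histones, rose from 11.5 and 12.6 CPM to 19.0 and 18.6 CPM (log2 fold change 0.64, limma adjusted p = 0.00089). At the deposited scaling 14 of the HSP90 co-chaperones were higher and 0 lower, and 15 and 1 of the HSP40 and HSP70 partners. Over all genes, 62.8% were higher and 5.46% lower there. With any 1 mouse left out, fewer genes were called lower over all genes than with all 4 mice. With 1 mouse left out, the count of lower co-chaperones went down to 4 without vehicle replicate 2 or HDT replicate 2. The count of lower partners went down to 3 without vehicle replicate 1, vehicle replicate 2 or HDT replicate 2.

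Prefoldin delivers actin and tubulin to the chaperonin. Of 9 prefoldin and CCT-assisting genes, limma called 3 lower and none higher, beside 19.3% lower and 18.4% higher over all genes. None was higher at an unadjusted p under 0.05 or by edgeR. The prefoldin subunits Pfdn1 and Pfdn5 had log2 fold changes of −0.54 and −0.32, the furthest from 0 among the called genes. The list as a whole ran from −0.54 to 0.11 with a median of −0.08, and 6 of the 9 genes were not called. At the deposited scaling 8 of the 9 were called higher, beside 62.8% of all genes, with Pfdn1 at −0.009 and Pfdn5 at 0.21. Among 8 mitochondrial chaperone partners and proteases, 5 were lower and none was higher, beside 19.3% lower and 18.4% higher over all genes. At an unadjusted p under 0.05, 7 were lower and none higher, and edgeR gave the same counts of 5 and 0 as limma. The protease subunit Clpp fell from 34.3 and 34.7 CPM to 20.8 and 20.3 CPM (log2 fold change −0.75, limma adjusted p = 0.00012). Clpb, a disaggregase, had a log2 fold change of −0.52 (limma adjusted p = 0.00295) that turned to 0.01 at the deposited scaling. There 3 of the 8 were higher and 1 lower, beside 62.8% higher and 5.46% lower over all genes. Of 3 tested genes in the list of other genes with an Hspb symbol, 1 was lower, beside 19.3% of all genes. This was Hspb11 (log2 fold change −0.37, limma adjusted p = 0.0457). That call was lost with any 1 mouse left out, at limma adjusted p values of 0.0709 to 0.245, and by DESeq2 (0.141), and the sign turned to 0.16 at the deposited scaling. The fourth gene of that list had too few reads to be tested.

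Scaling decides the sign of many of these modest changes. At the deposited scaling 36 of the 44 members were called higher and 0 lower, beside 62.8% of all genes called higher and 5.46% lower. All 8 chaperonin genes, 5 of 5 mitochondrial, 8 of 11 constitutive and 7 of 11 stress-inducible genes were then called higher. The order of the genes was nearly the same, with Hspa1b at 1.27 and Hspd1 at 0.98 at the top and Cryab at −0.02 and Hspb1 at −0.17 at the bottom. Hsph1, Bag1, Hspa13, Dnaja3 and Stub1, called lower with TMM, had log2 fold changes of 0.04, 0.09, 0.27, 0.22 and 0.33 there. Under 14 alternatives, 4 of the 18 called members kept their call and direction in each, namely Hspa1b, Hspd1, Cct4 and Cct8. The deposited scaling, which adds about 0.53 to every gene, is among the 14, and Cryab, Hsph1 and Bag1 kept their lower call in the other 13.

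**Figure D5:**
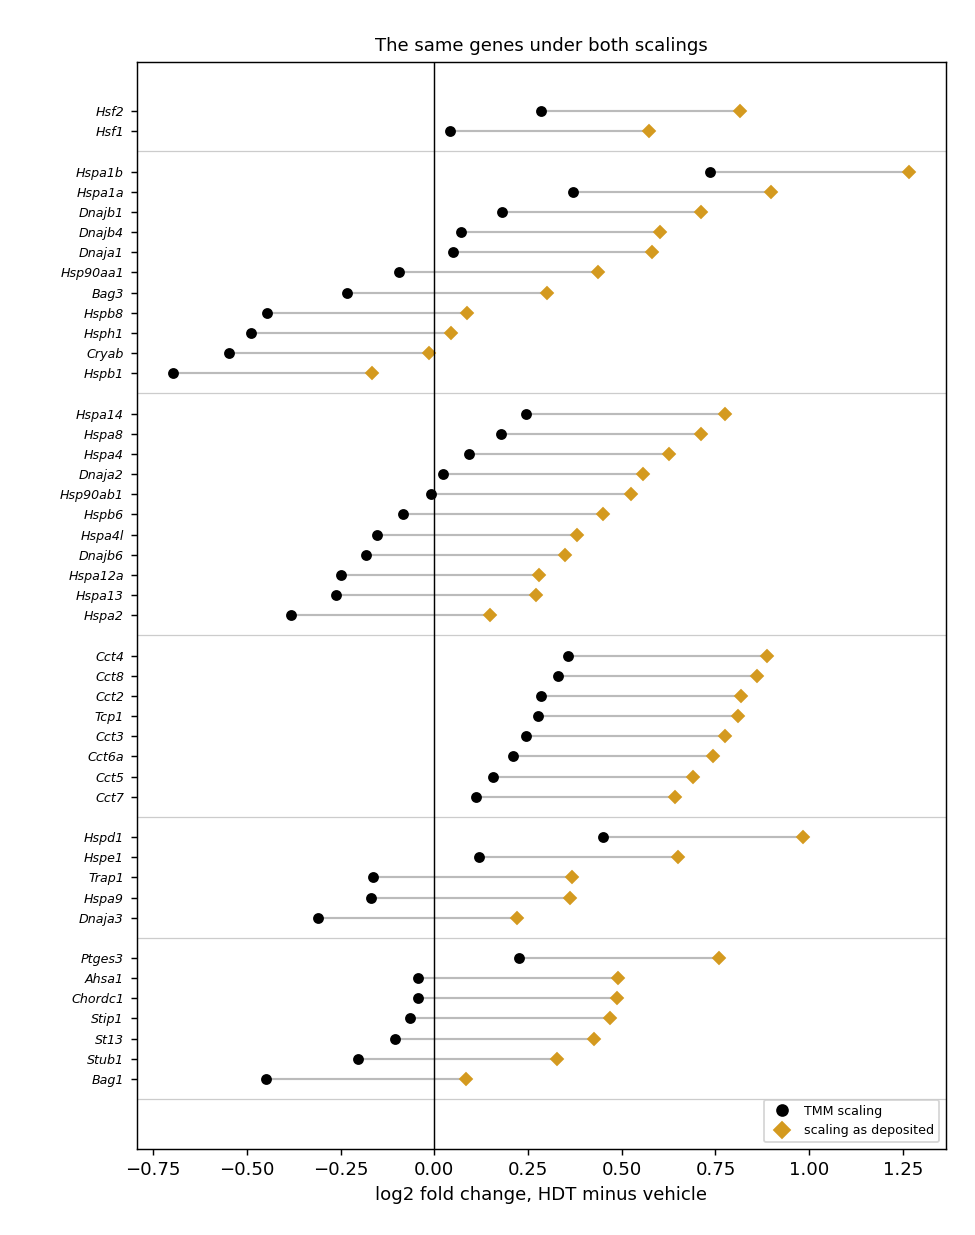
Log2 fold change of each of the 44 genes, HDT minus vehicle, at TMM scaling (circles) and at the scaling as deposited (diamonds). Each gene moves to the right by about the shift of all genes, 0.53, so genes such as Bag1 cross 0 while Hspb1 stays below it.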

How the data were processed

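RNA sequencing of 4 corpus samples was analysed from 1 deposited table. The tools named in the submitters' processing notes are edgeR, featureCounts, Subread 2.0.0, and STAR 2.7.1a, and the builds named are mm10 and GRCm38. No source used here gives their order, the annotation, the strand setting or the normalization formula. The values the authors deposited are a normalized signal: whole counts times 1 factor per library, 1.1381, 1.12, 1.1192 and 1.1128. Division returned whole reads for 100% of the values above 0 (tolerance 0.01).

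Genes were kept by filterByExpr. Values, brought to TMM effective library sizes, were tested as log2(value + 1) with limma 3.58.1 (trend, robust), two-sided, group as the only term, with Benjamini-Hochberg adjustment over 18285 genes at 0.05. Fold changes on this scale understate changes of low genes. edgeR 4.0.16 and DESeq2 1.42.0 on the recovered reads, other scalings, filters and pseudocounts, a replicate block and leaving out each mouse were alternatives. The code was tested on simulated data. Positions come from GENCODE M21 (GRCm38) and promoters from RefSeq. Exon overlaps use all annotated transcripts.

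The members and lists were chosen with earlier results of these data known. All 44 members are named, with at most the 2 most changed called genes of each other list. Of the chief cell list 1 symbol, Mia2, was not in the table. Marker lists of pit cells (5 genes, 5 lower) and macrophages (8, of which 6 higher) were also computed. So was a list of skeletal muscle (4 tested, none called by limma or edgeR, none at an unadjusted p under 0.05). Over all genes, 18.4% were higher and 19.3% lower.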

Additional observations from a re-analysis of the deposited data

How the results depend on the processing

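At the deposited scaling 11483 genes were higher and 998 lower, and 36 members were higher and 0 lower; the stress-inducible genes gave 7 and 0, the constitutive genes 8 and 0 and the mitochondrial genes 5 and 0. There the sign of these members turned: Ahsa1 0.49, Bag1 0.085, Bag3 0.30, Chordc1 0.49, Dnaja3 0.22, Dnajb6 0.35, Hsp90aa1 0.44, Hsp90ab1 0.52, Hspa12a 0.28, Hspa13 0.27, Hspa2 0.15, Hspa4l 0.38, Hspa9 0.36, Hspb6 0.45, Hspb8 0.086, Hsph1 0.044, St13 0.43, Stip1 0.47, Stub1 0.33 and Trap1 0.37. This scaling leaves the common shift of 0.53 in every gene. With upper-quartile scaling 2 stress-inducible genes were higher, and Hsp90ab1 turned to 0.026. With no low-count filter Hsp90ab1 turned to 0.004. With a filter of 1 CPM 2 mitochondrial genes were lower. DESeq2 on recovered reads called 0 constitutive genes higher and 0 lower, while limma called 1 and 1, and 1 and 2 at an unadjusted p under 0.05. Over all genes DESeq2 called 2626 higher and 2896 lower, while limma called 3369 and 3520. The cause of these differences between tests was not tested.

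With the replicate number as a block, 6 members were higher and 3 lower, and 0 constitutive genes were higher, 0 constitutive genes lower and 0 mitochondrial genes lower. Over all genes the block gave 2359 higher and 2623 lower. The labels give no shared litter or day behind the numbers, and the deviations of both replicates 1 from their group means correlated at −0.142 across genes, so the numbers are taken as names only.

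With 1 mouse left out, the lone mouse of a group is assumed to vary like the other group. Over all genes, too, fewer were called in each direction in every such fit than with all 4 mice. The counts then ranged from 4 to 11 for members higher, 4 to 9 for members lower, 2 to 7 for chaperonin genes higher, 1 to 2 and 2 to 5 for stress-inducible genes higher and lower, 0 to 1 for constitutive genes in each direction and 0 to 2 for mitochondrial genes lower. The chaperonin count was 2 without vehicle replicate 1 and 2 without vehicle replicate 2. Members higher numbered 5 and 4 without vehicle replicates 1 and 2, members lower 4 without vehicle replicate 1, and stress-inducible genes lower 5 without HDT replicate 2. Log2 fold changes whose sign turned ranged from −0.106 to 0.043 for Chordc1, −0.067 to 0.169 for Dnaja1, −0.008 to 0.090 for Hsf1, −0.032 to 0.017 for Hsp90ab1 and −0.40 to 0.23 for Hspb6. Of the ratios, that of Hspa1a and Hspa1b to Hspa8 ranged from 0.248 to 0.598, Hspa4l to Hspa4 from −0.366 to −0.125, Hspd1 to Hspe1 from 0.210 to 0.454, and Cct2 and Cct3 to the subunit mean from −0.005 to 0.084 and −0.020 to 0.016. Precision is limited by 2 mice per group.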
